A study of Mus musculus with 65 samples.

Results

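The genes described here are 6 chemokine receptors by which monocytes, macrophages and dendritic cells are guided through tissue: Ccr7, Ccrl2, Cxcr4, Ccr2, Ccr1 and Cx3cr1. They were taken by symbol from the deposited gene count table, and all 6 were found among its 23755 symbols. Levels are given over 65 polyA RNA libraries of mouse cells in 19 groups from 3 separately fitted experiments, numbered 2, 3 and 5 in the labels. Experiment 3 held bone marrow derived dendritic cells (labelled C57BL/6) left untreated (0 h) or given 100 ng/mL lipopolysaccharide (LPS, the bacterial ligand of the receptor TLR4) for 2 h or 4 h. Its genotypes were MyD88KO and TrifKO, with 3 libraries at each time, and wild type (WT) with 6, 5 and 6 libraries at 0 h, 2 h and 4 h. MyD88 and TRIF are the adaptors through which TLR4 signals. Experiment 2 held untreated dendritic cells that were Suv39h1KO, Suv39h1KO IfnarKO, IfnarKO or WT, with 3 libraries each. Suv39h1 is a histone methyltransferase of heterochromatin and Ifnar the type I interferon receptor. Experiment 5 held RAW264.7 cells, a mouse macrophage line (labelled BALB/c), that carried gRNA_1, gRNA_2 (guides 1 and 2) or a control guide, at 0 h and 2 h of LPS, with 3 libraries each. The genes that guides 1 and 2 target are not given in the labels, and an LPS dose is stated for dendritic cells only. The titles of the RAW264.7 libraries call them DC, while their source label names RAW264.7.

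Chemokine receptors are G protein coupled receptors of the cell surface that steer a cell up a gradient of a secreted chemokine. In dendritic cells, maturation is known to bring up Ccr7, whose ligands Ccl19 and Ccl21 are made in lymph nodes and lymphatic vessels, while receptors for inflammatory chemokines are lost. Ccrl2 is an atypical receptor that binds the attractant chemerin without signalling, Cxcr4 reads the bone marrow and stromal chemokine Cxcl12, Ccr2 is the receptor for Ccl2 by which monocytes leave the marrow, Ccr1 binds inflammatory chemokines such as Ccl3 and Ccl5, and Cx3cr1 is the fractalkine receptor of monocytes and tissue macrophages.

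Libraries held 36.9 M to 95.3 M counts on genes (median 54.7 M), and levels are given as CPM, a gene's counts relative to the size of its library. Per plain library total, 1 CPM stands for at least 36.9 counts. The levels are scaled by TMM factors within each experiment, so 1 scaled CPM can stand for fewer counts where the factor is below 1. These factors differed by time in experiment 3 (1.15 to 1.25 in WT cells at 0 h, 0.859 to 0.959 at 2 h and 0.721 to 0.828 at 4 h), so levels per plain library total are also given where they change a call. Scaled by library totals, the median log2 fold change of all genes moved to -0.71 for WT cells at 4 h against 0 h, where it was -0.07 with TMM, and the genes called higher and lower became 13.8% and 65.5%, where TMM gave 30.0% and 35.1%. The 11 dendritic cell markers summed to between 13602 and 30338 CPM in experiment 3, with none at 0. In RAW264.7 cells the same markers summed to 97.5 to 280 CPM, and the 11 macrophage and monocyte markers found (of 12 listed) to 5411 to 7775 CPM. The macrophage and monocyte markers summed to 4281 to 14635 CPM in experiment 3 and 9746 to 20960 CPM in experiment 2, so their sum does not set RAW264.7 cells apart. In RAW264.7 cells this list was led by Lyz2 (median 3771 CPM) and Csf1r (1784 CPM), while Ly6c2, C1qa and C1qb had a median of 0. Suv39h1 was at most 0.371 CPM in the Suv39h1KO libraries, with or without Ifnar, and 36.9 CPM or more in the others of experiment 2. Ifnar1 was at 122 to 161 CPM in libraries labelled IfnarKO and 173 to 218 CPM in the others, and Myd88 was 46.2 to 48.6 CPM in MyD88KO and 72.2 to 80.7 CPM in WT libraries at 0 h, and 83.3 to 97.6 CPM in MyD88KO and 384 to 461 CPM in WT libraries at 4 h. The deleted parts are not given, so the levels of Ifnar1 and Myd88 do not check those labels. In the TrifKO groups Ticam1, the gene of TRIF, lay between 29.8 and 50.3 CPM in 7 libraries, no lower than the 25.02 to 58.4 CPM of WT libraries, and was 2.94 CPM and 2.46 CPM only in cohort 3 at 2 h and 4 h. Results for TrifKO are therefore given for the libraries labelled TrifKO, with and without cohort 3. Xist, the RNA made from the inactive X chromosome of female cells, also divides experiment 3, and the labels give no sex. It was at most 0.0136 CPM in MyD88KO cohort 3 and 492 to 774 CPM in the other cohorts of MyD88KO, and at most 0.0584 CPM in WT cohort 3 and 457 to 1372 CPM in the other cohorts of WT, at all 3 times. In TrifKO it was at most 0.0378 CPM in cohort 1 at 0 h and 2 h, cohort 2 at 4 h and cohort 3 at 2 h and 4 h, and 1010 CPM or more in the other 4 libraries. A TrifKO cohort number therefore does not follow the same animals through the 3 times, and TrifKO values in cohort order are not series of 1 source. A fit with a term for libraries with and without Xist was added, and its values are given where they change a call. MyD88KO libraries all carry numbers up to 30 and TrifKO libraries numbers from 33, while WT libraries come from both number sets, so TrifKO and MyD88KO cannot be told apart from their library sets. Several comparisons with WT are also given within a set.

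In WT dendritic cells the share of the 6 receptors that changed with LPS was close to that of all genes. At 2 h against 0 h, 3 of the 6 passed the test, where 45.9% of the 14475 genes tested did, and at 4 h against 0 h 4 of the 6 passed, where 65.1% of genes did. By 4 h Ccr7 and Ccrl2 were higher, and Cxcr4 and Ccr2 were lower, than at 0 h. Ccr1 and Cx3cr1 did not pass at either time in this fit. The median of all genes at 4 h was -0.07 on the log2 scale. All adjusted p-values below are from edgeR's quasi-likelihood test over all genes of the experiment, with 0.05 as the threshold. Each log2 fold change carries its standard error.

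Ccr7 (chr11:99144196-99155077, minus strand, in GENCODE M21 on GRCm38), the lymph node homing receptor, was already abundant in unstimulated dendritic cells and was a late responder. The 6 WT libraries at 0 h ran from 837 to 1139 CPM with a median of 1028. At 2 h the WT libraries had 840, 1243, 1479, 1505 and 1568 CPM, and at 4 h they ran from 2313 to 4395 CPM with a median of 3649. The lowest library at 4 h lay above the highest at 0 h and at 2 h, while 2 h and 0 h overlapped. Accordingly the 2 h difference did not pass (log2 0.39 ± 0.18, adjusted p = 0.087; 0.52, adjusted p = 0.020 without the WT library of 840 CPM), and the 4 h difference did (1.77 ± 0.18 against 0 h, adjusted p = 1.1e-09, and 1.38 ± 0.19 against 2 h, adjusted p = 1.9e-06). Within library sets the rise at 4 h against 0 h was 1.85 in the high and 1.68 in the low set.

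Ccrl2 (chr9:111054486-111057519, minus strand), the atypical chemerin receptor, had the largest log2 change of the 6 in WT cells and had reached it by 2 h. It lay between 14.2 and 24.98 CPM in the 6 WT libraries at 0 h. At 2 h the 5 WT libraries had 139, 158, 175, 368 and 391 CPM, and the 6 at 4 h ran from 152 to 447 CPM. Every stimulated WT library was above every WT library at 0 h, but the stimulated libraries fell into a lower and a higher range. The libraries above 360 CPM were those of cohorts 1 and 2 in the high set, while cohort 3 of that set had 158 CPM at 2 h and 172 CPM at 4 h. Xist was 1169 to 1372 CPM in the libraries above 360 CPM and 593 to 742 CPM in the stimulated low-set libraries of cohorts 1 and 2. The Xist term does not separate these levels, and their link with Ccrl2 was not tested. The log2 change was 3.63 ± 0.32 at 2 h (adjusted p = 2.1e-10) and 3.79 ± 0.32 at 4 h (adjusted p = 1.8e-11), without a call between 4 h and 2 h (0.16 ± 0.30, adjusted p = 0.71). It was 3.98 in the high set and 3.53 in the low set at 4 h against 0 h.

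Cxcr4 (chr1:128588199-128592293, minus strand), the Cxcl12 receptor, had fallen by 2 h. WT libraries ran from 87.0 to 120 CPM at 0 h with a median of 114. At 2 h they had 18.7, 20.99, 22.4, 28.1 and 30.9 CPM, and at 4 h they ran from 27.7 to 54.6 CPM with a median of 39.7. No stimulated WT library reached the 0 h range. The log2 change against 0 h was -2.19 ± 0.23 at 2 h (adjusted p = 4.4e-09) and -1.49 ± 0.21 at 4 h (adjusted p = 2.8e-07). Between 4 h and 2 h Cxcr4 was higher by 0.70 ± 0.22 (adjusted p = 0.012), but this step was not called with library totals (0.43, adjusted p = 0.12) or within either set (0.64 in the high and 0.73 in the low set, adjusted p = 0.15 and 0.13), and the ranges overlapped.

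Ccrl2 and Cxcr4 are shown here with the bases around their transcript starts because Ccrl2 rose and Cxcr4 fell after LPS in both cell types, WT dendritic cells and the RAW264.7 cells described further on. The windows hold 250 bases before and 50 bases after a start site, from RefSeq on GRCm38.p6, and run 5′ to 3′ on the gene's minus strand. The Ccrl2 window is chr9:111057469-111057768, the outermost of 3 listed for the gene, and that of Cxcr4 is chr1:128592250-128592549.
Ccrl2: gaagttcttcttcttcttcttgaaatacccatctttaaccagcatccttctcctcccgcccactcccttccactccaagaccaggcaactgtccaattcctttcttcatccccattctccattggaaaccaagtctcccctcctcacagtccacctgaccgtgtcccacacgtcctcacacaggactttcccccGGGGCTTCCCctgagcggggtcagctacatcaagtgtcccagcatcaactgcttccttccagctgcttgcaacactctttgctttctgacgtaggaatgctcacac
Cxcr4: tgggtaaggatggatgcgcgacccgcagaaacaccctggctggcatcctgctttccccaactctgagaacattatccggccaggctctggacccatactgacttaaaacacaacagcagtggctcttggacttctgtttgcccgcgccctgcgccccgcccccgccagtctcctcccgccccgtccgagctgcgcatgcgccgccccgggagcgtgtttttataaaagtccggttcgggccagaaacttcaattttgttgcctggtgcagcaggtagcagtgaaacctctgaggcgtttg
Capitals mark the match to the NF-kB motif, which begins 56 bases before the Ccrl2 start. Of the 7 windows of 5 members (Ccr7 is without one in the table), 2 held an NF-kB match, this one and one of Ccr1, where 8.46% of all 32851 windows do. The searches for ISRE (GAAANNGAAA), GAS (TTCNNNGAA) and AP-1 (TGANTCA) on both strands found none in the 7 windows, where 3.44%, 8.30% and 7.81% of all windows have one. A match in these letters is a description and not a measured binding site.

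**Figure D1:**
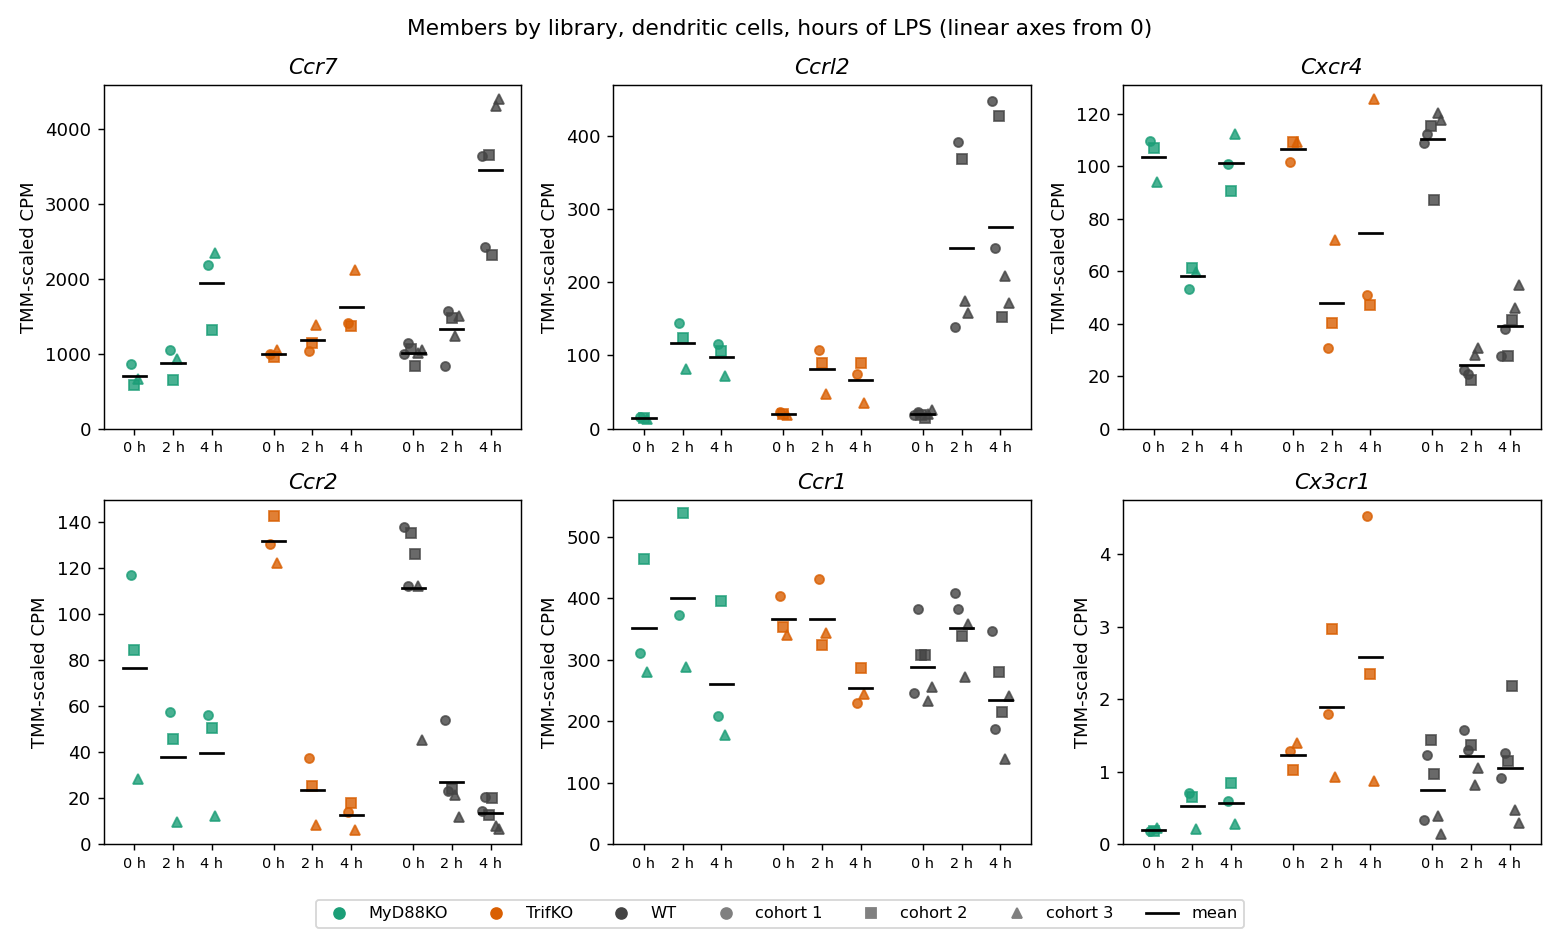
Each panel plots 1 receptor, with TMM-scaled CPM of each library on a linear axis from 0 against hours of LPS in MyD88KO, TrifKO and WT dendritic cells. Marker shapes give the cohort and black lines the group mean. In WT cells Ccr7 stands at 2313 to 4395 CPM at 4 h, all above its 0 h libraries, while Cxcr4 falls to 18.7 to 30.9 CPM at 2 h.

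Ccr2 (chr9:124101950-124113557, plus strand), the receptor of marrow-derived monocytes, fell in WT cells at both times. It lay at 44.97 CPM in 1 WT library at 0 h and at 112 to 137 CPM in the other 5. At 2 h the WT libraries had 11.8, 21.4, 23.2, 23.8 and 54.0 CPM, and at 4 h they ran from 6.4 to 20.4 CPM. The 4 h and 0 h libraries did not overlap, and 1 library of 2 h lay inside the 0 h range. The log2 change against 0 h was -2.05 ± 0.49 at 2 h (adjusted p = 0.00095) and -3.03 ± 0.48 at 4 h (adjusted p = 2.3e-06), and in the low set alone the 2 h change of -1.73 was not called (adjusted p = 0.11). At each time the lowest WT libraries in Ccr2 were those of cohort 3, which also have the lowest summed macrophage and monocyte markers: at 4 h these were 6538 and 6999 CPM in WT cohort 3 and 7388 to 13130 CPM in the other 4 WT libraries. In bulk RNA, fewer cells of a type and less RNA per cell cannot be told apart. The WT libraries of cohort 3 are also those without Xist, and with the Xist term Ccr2 was lower at 4 h than at 2 h as well (-1.07, adjusted p = 0.021). Across times the WT median of these markers hardly moved (8454, 9188 and 7925 CPM at 0 h, 2 h and 4 h) while Ccr2 fell, and the part of cell make-up in the cohort differences was not tested.

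Ccr1 (chr9:123962124-123968692, minus strand, 133 kb from Ccr2) moved little. WT libraries ran from 232 to 383 CPM at 0 h, from 272 to 408 CPM at 2 h and from 138 to 346 CPM at 4 h, and all 3 ranges overlapped. The change at 4 h against 0 h was -0.30 ± 0.20 (adjusted p = 0.18), and that of 4 h against 2 h was -0.58 ± 0.21 (adjusted p = 0.027), the third of the 3 members called between these times beside Ccr7 and Cxcr4, where 35.8% of genes were called. The Ccr1 result depends on the scaling. Per plain library total it averaged 178 ± 49.2 CPM at 4 h and 343 ± 57.1 CPM at 0 h (SD, n = 6 each), a change of -0.95 (adjusted p = 5.1e-05), which is close to the -0.71 by which the median gene moved under that scaling. The 4 h against 2 h call was lost within the high set (-0.31, adjusted p = 0.40). It was also lost on leaving out either cohort 1 library at 2 h or the low-set library of cohort 1 or 3 at 4 h (adjusted p = 0.052 to 0.074).

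Cx3cr1 was near the limit of what these dendritic cell libraries can show. It had 7 to 254 counts per library in experiment 3 (0.136 to 4.52 CPM) and 6 to 106 counts in experiment 2. In WT cells it averaged 0.748 ± 0.533 CPM at 0 h (SD, n = 6), 1.22 ± 0.297 at 2 h (n = 5) and 1.04 ± 0.675 at 4 h (n = 6), and neither change passed (0.70 ± 0.49 at 2 h and 0.49 ± 0.48 at 4 h against 0 h), though the 2 h change was called with the Xist term (0.92, adjusted p = 0.043). GENCODE M21 draws Cx3cr1 over 168 kb (chr9:119901616-120069879, minus strand), across 9 other genes, of which Gorasp1, Csrnp1 and Xirp1 lie on the same strand. Which annotation the counts used is not given in the sources used here, so which reads were counted for Cx3cr1 is uncertain. In the same count table Cx3cr1 had 7828 to 28734 counts in RAW264.7 libraries. The part of the annotation in its low counts in dendritic cells was not tested.

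In MyD88KO cells Ccrl2 rose at 2 h and 4 h and Ccr7 at 4 h, while the fall of Cxcr4 was called at 2 h and not at 4 h. At 2 h 2 of 6 members passed against 0 h (16.1% of genes did), and 2 of 6 at 4 h (34.1% of genes). Ccr7 had 867, 584 and 663 CPM (cohorts 1 to 3) before LPS, then 1045, 652 and 930 CPM at 2 h, then 2183, 1314 and 2348 CPM at 4 h. All 3 libraries at 4 h lay above those at 0 h and 2 h, and the change at 4 h against 0 h was 1.47 ± 0.25 (adjusted p = 4.9e-05). Ccrl2 had 16.3, 14.5 and 13.6 CPM at 0 h, 145, 124 and 81.1 CPM at 2 h, then 115, 106 and 72.0 CPM at 4 h. Its rise was 2.98 ± 0.43 at 2 h (adjusted p = 1.2e-05) and 2.72 ± 0.43 at 4 h (adjusted p = 1.4e-05). Cxcr4 had 110, 107 and 93.8 CPM at 0 h, 53.3, 61.4 and 59.8 CPM at 2 h, then 101, 90.6 and 112 CPM at 4 h. The MyD88KO libraries at 4 h overlapped those at 0 h (log2 -0.03 ± 0.28, adjusted p = 0.95), and the call at 2 h (-0.83 ± 0.29, adjusted p = 0.045) was lost on leaving out any 1 of its 6 libraries. With the Xist term Cxcr4 was higher at 4 h than at 2 h in MyD88KO cells (0.79, adjusted p = 0.040). Ccr1 had 312, 464 and 280 CPM at 0 h, 373, 539 and 288 CPM at 2 h, then 208, 396 and 178 CPM at 4 h, a difference of -0.43 ± 0.28 at 4 h against 0 h (adjusted p = 0.24). It was called with library totals (-0.76, adjusted p = 0.020) and without the 396 CPM library (-0.87, adjusted p = 0.020).

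Ccr2 differed widely between MyD88KO cohorts. It had 117, 84.3 and 28.2 CPM at 0 h, 57.5, 45.8 and 9.50 CPM at 2 h, then 55.8, 50.2 and 12.1 CPM at 4 h (cohorts 1, 2 and 3). Each cohort was lower at both later times than at 0 h, but over libraries the changes of -1.02 ± 0.63 at 2 h and -0.96 ± 0.63 at 4 h were not called (adjusted p = 0.32 and 0.25). This fit had no cohort term, so these standard errors include the spread between cohorts. With the replicate block of library set and cohort, the fall of Ccr2 was called at both times, as listed in the closing section. Cohort 3 again had the lowest macrophage and monocyte marker sums, 5361, 5188 and 4281 CPM at 0 h, 2 h and 4 h, against 7969 to 12962 CPM in the other MyD88KO libraries, and it lacked Xist.

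In the libraries labelled TrifKO, Ccr2 and Cxcr4 fell and Ccrl2 rose at 2 h, and Ccr2 fell while Ccrl2 and Ccr7 rose at 4 h. There 3 of 6 members passed at 2 h against 0 h (20.7% of genes did) and 3 of 6 at 4 h (25.9% of genes). Ccr2 had 130, 142 and 122 CPM at 0 h, 37.2, 25.2 and 8.36 CPM at 2 h, then 14.1, 17.9 and 6.24 CPM at 4 h, in cohorts 1 to 3. No stimulated library reached the 0 h range, and the fall was -2.48 ± 0.66 at 2 h (adjusted p = 0.0066; -2.13, adjusted p = 0.058 without cohort 3) and -3.36 ± 0.68 at 4 h (adjusted p = 0.00055; -3.09 without cohort 3). Ccrl2 had 23.1, 19.6 and 18.5 CPM at 0 h, 107, 89.1 and 46.95 CPM at 2 h, then 75.3, 89.3 and 35.2 CPM at 4 h. Its rise was 1.99 ± 0.42 at 2 h (adjusted p = 0.00087) and 1.71 ± 0.41 at 4 h (adjusted p = 0.0028). Ccr7 had 999, 957 and 1044 CPM at 0 h, 1038, 1141 and 1385 CPM at 2 h, then 1405, 1371 and 2110 CPM at 4 h. Its rise at 4 h of 0.70 ± 0.25 (adjusted p = 0.038) was not called without cohort 3 (0.51, adjusted p = 0.27) with library totals (0.47, adjusted p = 0.13) or with the Xist term (0.63, adjusted p = 0.051), and it was lost in 5 of the 6 fits without 1 library, that without TrifKO replicate 2 at 4 h excepted (adjusted p = 0.054 to 0.22). Ccr1 had 404, 353 and 341 CPM at 0 h, 432, 324 and 343 CPM at 2 h, then 230, 287 and 244 CPM at 4 h. All 3 at 4 h lay below those at 0 h, but the difference of -0.53 ± 0.28 was not called (adjusted p = 0.17). It was called with library totals (-0.76, adjusted p = 0.034) and with only the compared groups in the fit (-0.54, adjusted p = 0.011).

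Cxcr4 in TrifKO cells turned on the libraries labelled cohort 3 at 2 h and 4 h. It had 102, 109 and 109 CPM at 0 h, 30.7, 40.4 and 72.1 CPM at 2 h, then 51.1, 47.02 and 126 CPM at 4 h. The high values at 2 h and 4 h are those of cohort 3, the libraries in which Ticam1 was 2.94 CPM and 2.46 CPM. These libraries also had the lowest Ccrl2 of their groups, the highest Ccr7, and high granulocyte marker sums (1155 and 1197 CPM, against 333 to 512 CPM in the other 7 TrifKO libraries), whose part in the result was not tested. Both lack Xist, as do the TrifKO libraries of 30.7 CPM at 2 h and 47.02 CPM at 4 h, which are not high in Cxcr4. With all libraries Cxcr4 fell by 1.16 ± 0.29 on the log2 scale at 2 h (adjusted p = 0.0041) and its difference at 4 h was not called (-0.52 ± 0.29, adjusted p = 0.19). Without cohort 3 the fall at 4 h was -1.10 (adjusted p = 0.0024).

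**Figure D2:**
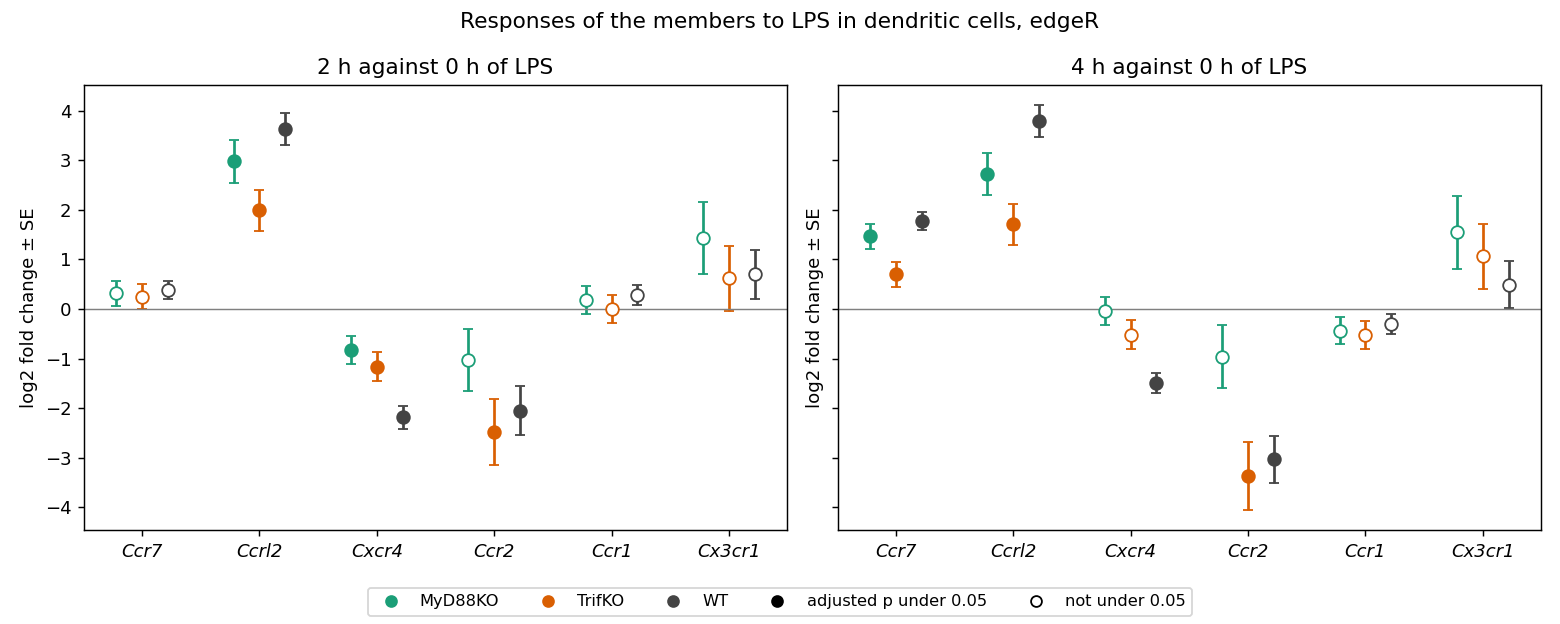
Points give the log2 fold change of each receptor at 2 h (left) and 4 h (right) of LPS against 0 h in MyD88KO, TrifKO and WT dendritic cells, with bars for the standard error and filled points for adjusted p under 0.05. At 4 h Ccrl2 stands at 2.72, 1.71 and 3.79 and Cxcr4 at -0.03, -0.52 and -1.49 in MyD88KO, TrifKO and WT cells.

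Before LPS no member was called between either knockout and WT. At 0 h 0 of 6 members passed between MyD88KO and WT with edgeR (0.0622% of genes did) and 0 with DESeq2, with 2 at an unadjusted p under 0.05, and 0 of 6 passed between TrifKO and WT with either tool (0% of genes with edgeR), with 0 at an unadjusted p under 0.05. The lowest adjusted p was that of Cx3cr1 in MyD88KO cells, at 0.180, 0.178 and 0.218 CPM in MyD88KO libraries and 0.136 to 1.44 CPM in WT libraries (-1.95 ± 0.67, adjusted p = 0.55). Cx3cr1 lies 0.56 Mb from Myd88 on chromosome 9, and Ccr1, Ccr2 and Ccrl2 are on the same chromosome at 4.62 Mb, 4.76 Mb and 8.28 Mb. Whether DNA around the targeted gene differs between the strains is not given.

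After LPS the knockouts differed from WT mainly in Cxcr4, Ccrl2 and Ccr7. At 2 h 1 of 6 members passed between MyD88KO and WT (12.8% of genes) and 2 of 6 between TrifKO and WT (3.63% of genes). At 4 h these were 4 of 6 (28.4% of genes) and 3 of 6 (33.2% of genes). Cxcr4 averaged 101 CPM in MyD88KO cells and 39.3 CPM in WT cells at 4 h, a difference of 1.37 ± 0.24 (adjusted p = 0.00011; 1.29 within the low set, adjusted p = 0.0059). At 2 h the difference was 1.26 ± 0.25 (adjusted p = 0.0013; 1.20 within the low set, adjusted p = 0.082). All 3 MyD88KO libraries lay above all WT libraries at both times. Between TrifKO and WT the same gene differed by 0.98 ± 0.25 at 2 h (adjusted p = 0.019) and 0.92 ± 0.24 at 4 h (adjusted p = 0.0034), but neither was called without cohort 3 (0.55, adjusted p = 0.16, and 0.32, adjusted p = 0.22). The 2 h call was also lost within the high set (1.02, adjusted p = 0.070), with only the compared groups in the fit (0.97, adjusted p = 0.18), and without the high-set WT library of cohort 1 or 2 (adjusted p = 0.056 and 0.066).

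Ccrl2 was lower in both knockouts at 4 h. It averaged 97.8 CPM in MyD88KO cells and 276 CPM in WT cells (-1.49 ± 0.37, adjusted p = 0.0035), and -1.03 within the low set (adjusted p = 0.029). It averaged 66.6 CPM in TrifKO cells (-2.05 ± 0.39 against WT, adjusted p = 0.00012), with -2.39 within the high set and -1.74 without cohort 3, both called. Neither knockout overlapped WT at 4 h. At 2 h the TrifKO difference was -1.60 ± 0.38 (adjusted p = 0.011), lost without cohort 3 (-1.33, adjusted p = 0.084), and the MyD88KO difference was -1.08 ± 0.37 (adjusted p = 0.054). The MyD88KO difference was called without any 1 of the WT libraries of 139, 158 and 175 CPM (adjusted p = 0.023 to 0.040), and with the Xist term (-1.09, adjusted p = 0.034), but was -0.43 within the low set (adjusted p = 0.58).

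Ccr7 at 4 h averaged 1629 CPM in TrifKO cells, 1948 CPM in MyD88KO cells and 3456 CPM in WT cells. The TrifKO difference was -1.09 ± 0.23 (adjusted p = 0.00041; -1.26 within the high set and -1.32 without cohort 3), and its 3 libraries lay below all 6 of WT. The MyD88KO difference was -0.83 ± 0.22 (adjusted p = 0.0065), and its highest library, 2348 CPM, lay just above the lowest WT library, 2313 CPM. It was not called within the low set (-0.61, adjusted p = 0.12), with library totals (-0.48, adjusted p = 0.056) or without MyD88KO replicate 2 (-0.61, adjusted p = 0.083). Ccr2 at 4 h averaged 39.4 CPM in MyD88KO cells and 13.6 CPM in WT cells (1.53 ± 0.52, adjusted p = 0.028). Its 12.1 CPM in MyD88KO cohort 3 lay inside the WT range of 6.4 to 20.4 CPM, and the call was lost within the low set (1.31, adjusted p = 0.20). Leaving out either of the other MyD88KO libraries or either WT library of cohort 3 also ended it (adjusted p = 0.056 to 0.15).

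Tests of the difference between responses used the same threshold but had larger standard errors, and gave fewer calls. For the response at 2 h less that of WT, 0 of 6 members passed in edgeR for MyD88KO (0.442% of genes did) and 0 for TrifKO (1.38% of genes), with 1 and 2 at an unadjusted p under 0.05 and 1 each by DESeq2. At 4 h, 1 of 6 passed for MyD88KO (6.86% of genes) and 2 of 6 for TrifKO (18.3% of genes). The Cxcr4 response at 4 h differed by 1.45 ± 0.35 between MyD88KO and WT (adjusted p = 0.010; 1.31, adjusted p = 0.13 within the low set). The Ccrl2 response of TrifKO cells differed from that of WT by -2.08 ± 0.50 (adjusted p = 0.0038; -1.84, adjusted p = 0.024 without cohort 3). That of Ccr7 differed by -1.07 ± 0.31 (adjusted p = 0.014; -1.26 without cohort 3), but was not called with library totals (-0.63, adjusted p = 0.075) or without TrifKO replicate 2 at 4 h (-0.95, adjusted p = 0.052). The Cxcr4 response of TrifKO cells differed by 0.97 ± 0.35 (adjusted p = 0.052), and by 1.39 with library totals (adjusted p = 0.0044) but 0.39 without cohort 3 (adjusted p = 0.44). The Ccrl2 and Ccr7 responses of MyD88KO cells were not called as different from WT (-1.07 ± 0.50, adjusted p = 0.21, and -0.30 ± 0.31, adjusted p = 0.64). With the Xist term 2 further members were called, Cxcr4 for MyD88KO at 2 h (1.38, adjusted p = 0.041) and Ccr2 for MyD88KO at 4 h (2.12, adjusted p = 0.026). These comparisons share the WT libraries.

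Between the knockouts, 0 of 6 members passed at 2 h with edgeR (3.37% of genes did) and 0 with DESeq2, with 1 at an unadjusted p under 0.05, and 1 of 6 passed at 4 h (11.4% of genes). That member was Cx3cr1, with 4.52, 2.35 and 0.868 CPM in TrifKO cells and 0.589, 0.846 and 0.275 CPM in MyD88KO cells at 4 h (2.18 ± 0.69, adjusted p = 0.037). The groups did not overlap, but the call was lost in 4 of 6 fits that left out 1 library (MyD88KO replicate 1 or 3, TrifKO replicate 1 or 2, adjusted p = 0.071 to 0.28), with a term for the library set (adjusted p = 0.078) and without the filter on low counts (adjusted p = 0.053). Against WT, Cx3cr1 in TrifKO cells at 4 h was 1.30 ± 0.55 higher (adjusted p = 0.068), and was called without cohort 3 (1.71, adjusted p = 0.027), with library totals (1.65, adjusted p = 0.012) and with the Xist term (1.67, adjusted p = 0.0022). At 2 h that term gave calls for Cx3cr1 in TrifKO against MyD88KO cells (2.27, adjusted p = 0.0099) and in MyD88KO against WT cells (-1.42, adjusted p = 0.043). For Cx3cr1 against WT no value within a library set is given here. The TrifKO libraries at 4 h (0.868 to 4.52 CPM) overlapped those of WT (0.285 to 2.19 CPM). Without cohort 3, Cxcr4 was lower in TrifKO than in MyD88KO cells at 4 h (-1.04, adjusted p = 0.0024).

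The order of levels over the 9 groups of experiment 3 had few gaps. For Ccrl2 the 6 stimulated groups stood above the 3 unstimulated ones, with WT at 4 h (276 CPM) first and MyD88KO at 0 h (14.8 CPM) last, and the gap between TrifKO at 4 h and TrifKO at 0 h was the only one between neighbours whose libraries did not overlap. For Cxcr4 the order ran from WT at 0 h (110 CPM) to WT at 2 h (24.2 CPM), for Ccr7 from WT at 4 h (3456 CPM) to MyD88KO at 0 h (705 CPM), and for Ccr2 from TrifKO at 0 h (131 CPM) to TrifKO at 4 h (12.8 CPM). Every pair of neighbours in these 3 orders overlapped.

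In untreated dendritic cells of experiment 2, loss of Suv39h1 or Ifnar was followed by no called change in any of the 6 receptors. With edgeR 0 of 6 members passed for Suv39h1KO against WT (0.209% of genes did), Suv39h1KO IfnarKO against IfnarKO (0.222%), Suv39h1KO IfnarKO against Suv39h1KO (0.160%), IfnarKO against WT (0.125%) or for the difference of the Suv39h1 effect between IfnarKO and WT backgrounds (0%). At an unadjusted p under 0.05 these were 0, 1, 2, 0 and 0 members, and DESeq2 called 0 in each. Ccr7 had 593, 714 and 1005 CPM in Suv39h1KO cells, 673, 785 and 1181 CPM in Suv39h1KO IfnarKO cells, 495, 927 and 1016 CPM in IfnarKO cells and 629, 761 and 1298 CPM in WT cells, in cohorts 1 to 3. In all 4 genotypes cohort 1 was lowest and cohort 3 highest. The Suv39h1KO difference in Ccr7 was -0.22 ± 0.34, and Suv39h1KO lay below WT in each cohort. This fit had no cohort term, so standard errors and unadjusted p-values here include the spread between cohorts. With a cohort block no member was called either. Cxcr4 lay at 104 to 148 CPM in Suv39h1KO cells and 122 to 139 CPM in WT cells (-0.06 ± 0.13), and Ccrl2 lay at 13.2 to 16.01 CPM in Suv39h1KO cells and 14.6 to 18.5 CPM in WT cells (-0.18 ± 0.19). Ccr2 was 110, 111 and 221 CPM in Suv39h1KO cells and 122, 182 and 188 CPM in WT cells. The members at an unadjusted p under 0.05 were Ccr2 (0.63 ± 0.28, adjusted p = 0.98) and Cx3cr1 (1.31 ± 0.53, adjusted p = 0.92) for Suv39h1KO IfnarKO against Suv39h1KO, and Ccr1 (-0.33 ± 0.15, adjusted p = 0.83) for Suv39h1KO IfnarKO against IfnarKO.

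**Figure D3:**
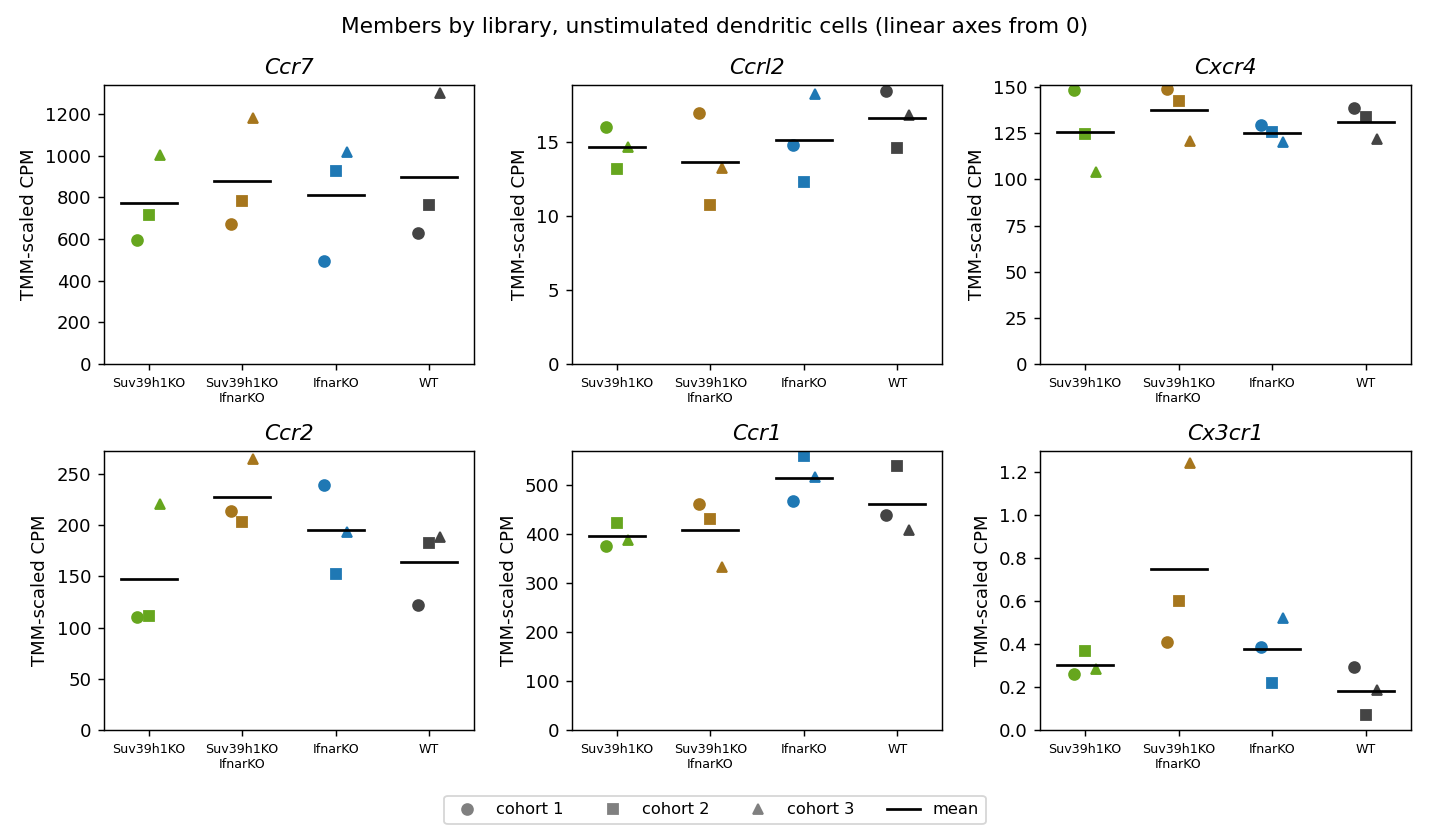
Each panel plots 1 receptor in untreated dendritic cells, with TMM-scaled CPM of each library on a linear axis from 0 and black lines for the mean of 3 libraries. Ccr7 runs from 593 to 1005 CPM in Suv39h1KO and from 629 to 1298 CPM in WT cells, with cohort 1 lowest and cohort 3 highest in each genotype.

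Levels of Cx3cr1, Ccr7, Ccr1 and Ccr2 in RAW264.7 cells lay apart from those in dendritic cells. Cx3cr1 was at 179 to 382 CPM in all 18 RAW264.7 libraries, against at most 4.52 CPM in any dendritic cell library. Ccr7 had 0 counts in 13 of the 18 and at most 2 counts in the others, under the floor of 3 counts, which is 0.0813 CPM or less in each library, against 495 CPM or more in dendritic cells. Ccr1 lay at 9.42 to 18.6 CPM and Ccr2 at 2.01 to 4.43 CPM. Cell type, strain and experiment cannot be told apart in these values, and no test was made between the experiments. Of the 11 dendritic cell markers, 4 had a median of 0 in RAW264.7 cells (Flt3, H2-Aa, Cd209a and Batf3), while Cd74 had a median of 112 CPM, Itgax of 44.97 CPM and Irf4 of 9.51 CPM.

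As in dendritic cells, LPS raised Ccrl2 and lowered Cxcr4 in RAW264.7 cells. In control guide cells 4 of the 5 members tested passed at 2 h against 0 h (51.6% of 13078 genes did), in guide 1 cells 3 of 5 (51.3%) and in guide 2 cells 4 of 5 (50.8%). Ccr7 was too low to be tested. Ccrl2 had 11.4, 9.38 and 14.6 CPM at 2 h, against 0.746, 0.535 and 0.689 CPM at 0 h with guide 1. With guide 2 it had 31.7, 26.8 and 18.1 CPM at 2 h, against 1.50, 0.691 and 1.97 CPM at 0 h. With the control guide it had 9.87, 9.88 and 12.3 CPM at 2 h, against 0.767, 0.835 and 1.15 CPM at 0 h. The rise was 4.19 ± 0.32, 4.26 ± 0.29 and 3.56 ± 0.30 in guide 1, guide 2 and control guide cells (adjusted p = 6.1e-09, 1.5e-09 and 3.1e-08), with no overlap between 2 h and 0 h.

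Cxcr4, at 9.90 to 17.7 CPM before LPS in all RAW264.7 libraries, fell with each guide. In control guide cells it had 1.28, 1.20 and 1.06 CPM at 2 h, against 10.9, 9.90 and 17.7 CPM at 0 h (-3.44 ± 0.29, adjusted p = 2.5e-08). With guide 1 it fell by 2.68 ± 0.27 and with guide 2 by 2.45 ± 0.26 on the log2 scale. No 2 h library overlapped those at 0 h.

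Ccr2 and Cx3cr1 moved less. Ccr2, which fell in dendritic cells, was higher at 2 h than at 0 h in RAW264.7 cells, by 0.66 ± 0.19 with guide 1 (adjusted p = 0.0077), 0.52 ± 0.19 with guide 2 (adjusted p = 0.030) and 0.55 ± 0.19 with the control guide (adjusted p = 0.022). With library totals the calls with guide 2 (0.34, adjusted p = 0.13) and the control guide (0.37, adjusted p = 0.10) were lost. Leaving out 1 library ended the call in 4 of 6 fits with guide 2 (replicate 1 or 3 at either time, adjusted p = 0.068 to 0.17) and in 3 of 6 with the control guide (replicate 2 or 3 at 0 h or 3 at 2 h, adjusted p = 0.053 to 0.078). Cx3cr1 had 179, 195 and 217 CPM at 2 h, below the 248, 267 and 286 CPM at 0 h, in control guide cells (-0.44 ± 0.10, adjusted p = 0.00098), with a fall also called with guide 2 (-0.25 ± 0.10, adjusted p = 0.040) and a difference that was not called with guide 1 (-0.21 ± 0.10, adjusted p = 0.077; -0.38, adjusted p = 0.0022 with library totals, and -0.29, adjusted p = 0.026 without guide 1 replicate 2 at 2 h). The guide 2 call was lost in 4 of 6 fits without 1 library (replicate 1 or 2 at 0 h, 1 or 3 at 2 h, adjusted p = 0.071 to 0.18). Ccr1 was not called with any guide (-0.08 to 0.05).

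Guide 2 cells differed from control guide cells in several members, and guide 1 cells in none that passed. At 2 h 4 of 5 members passed between guide 2 and the control guide (5.96% of genes did) and at 0 h 1 of 5 (4.53% of genes). Between guide 1 and the control guide 0 of 5 passed with edgeR at 0 h (2.24% of genes) and at 2 h (3.08% of genes), and 0 with DESeq2, with 0 and 2 at an unadjusted p under 0.05. Ccrl2 averaged 25.5 CPM with guide 2 and 10.7 CPM with the control guide at 2 h (1.25 ± 0.24, adjusted p = 0.0055), and Cx3cr1 averaged 294 CPM and 197 CPM (0.58 ± 0.10, adjusted p = 0.0020). Both were called under every alternative run. Cxcr4 averaged 2.91 CPM with guide 2 and 1.18 CPM with the control guide at 2 h (1.29 ± 0.30, adjusted p = 0.018), with no call without guide 2 replicate 1 (0.89, adjusted p = 0.11) or without any 1 of the control libraries (adjusted p = 0.051 to 0.070). Ccr1 averaged 15.4 CPM and 10.7 CPM (0.53 ± 0.15, adjusted p = 0.049), a call lost in 4 of 6 fits that left out 1 library (replicate 1 or 2 of either guide, adjusted p = 0.073 to 0.22). At 0 h Cx3cr1 was higher with guide 2 by 0.38 ± 0.10 (adjusted p = 0.029), a call also lost in 4 of 6 such fits (replicate 1 or 2 of either guide, adjusted p = 0.087 to 0.15). Ccr1 at 0 h differed by 0.53 ± 0.15 (adjusted p = 0.057), and was called without guide 2 replicate 3 (0.69, adjusted p = 0.0081). The difference of responses was not called for any member, with 0 of 5 for guide 1 (0.00765% of genes) and 0 of 5 for guide 2 (0% of genes) in edgeR and in DESeq2, and with 0 and 1 at an unadjusted p under 0.05.

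**Figure D4:**
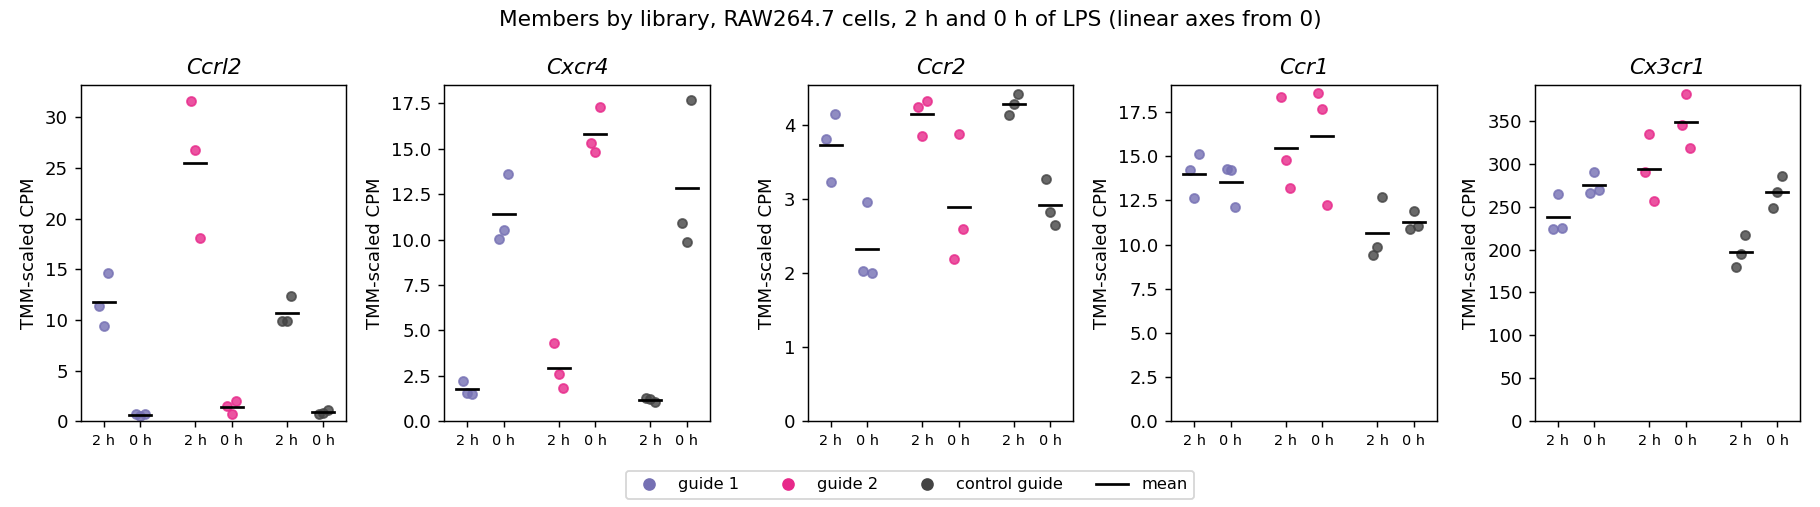
Each panel plots 1 receptor in RAW264.7 cells, with TMM-scaled CPM of each library on a linear axis from 0, at 2 h and 0 h of LPS for guide 1, guide 2 and the control guide, and black lines for the mean of 3 libraries. Ccrl2 stands at 9.38 to 31.7 CPM at 2 h and at most 1.97 CPM at 0 h, and Cxcr4 at most 4.31 CPM at 2 h and 9.90 to 17.7 CPM at 0 h.

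The genes around these receptors were read from 4 further lists. These lists were chosen with earlier results of these data known, so counts over them are a description and not independent support. In WT dendritic cells at 4 h against 0 h, 30.0% of all genes rose and 35.1% fell. Of 16 genes of the migratory dendritic cell programme 15 rose and 1 fell, with a median log2 change of 2.09. Cd40, the receptor by which T cells license dendritic cells, rose by 4.79 ± 0.26, the actin regulator Marcksl1 by 3.36 ± 0.21, the chemokine Ccl22 by 3.26 ± 0.30 and the actin bundler Fscn1 by 3.01 ± 0.27. Of the 12 listed ligands of the members, 10 were tested, and 7 rose and 0 fell (median 2.39). Ccl3 and Ccl5, ligands of Ccr1, rose by 5.85 ± 0.53 and 4.37 ± 0.43, and the Ccr2 ligands Ccl12 and Ccl7 by 3.87 ± 0.49 and 3.54 ± 0.55.

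Of 15 other chemokine receptors tested, 6 rose and 6 fell (median 0.18). The largest rises were in Xcr1, the receptor of cross-presenting dendritic cells (14.7 CPM at 4 h and 1.18 CPM at 0 h, 3.64 ± 0.20), Ccr4, a receptor of Ccl22 (18.3 CPM and 1.49 CPM, 3.63 ± 0.40), and Cxcr5, which guides cells to B cell follicles (9.74 CPM and 1.03 CPM, 3.24 ± 0.34). Ackr2, a scavenger of inflammatory chemokines, was near the limit of detection, at 0.0159 CPM at 4 h and 0.117 CPM at 0 h (adjusted p = 0.016). Of 21 genes of receptor signalling and desensitisation tested, 6 rose and 9 fell (median -0.28). Rgs1, which shortens G protein signals, rose by 2.73 ± 0.18, and Pik3r5, a subunit of the lipid kinase PI3K gamma, by 1.36 ± 0.13. Plcb2, a phospholipase downstream of these receptors, fell by 1.42 ± 0.21, and Rgs18, another regulator of G protein signalling, by 1.29 ± 0.38 on the log2 scale. With library totals 15 of the migratory programme rose and 1 fell, 6 ligands rose and 1 fell, 5 other receptors rose and 7 fell, and 4 signalling genes rose and 14 fell.

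At 4 h the knockouts were set against WT for the same lists. Between MyD88KO and WT 13.7% of all genes were higher and 14.6% lower, and between TrifKO and WT 17.7% were higher and 15.6% lower. With library totals these became 40.8% and 5.9% for MyD88KO, and 45.5% and 7.65% for TrifKO. Of the migratory programme 1 gene was higher and 10 lower in MyD88KO cells, and 0 were higher and 12 lower in TrifKO cells (with library totals 1 and 7, and 1 and 6). Cd40 was lower in MyD88KO (-1.62 ± 0.30) and TrifKO (-1.56 ± 0.30) cells. Of the ligands 0 were higher and 5 lower in MyD88KO cells, and 0 higher and 4 lower in TrifKO cells (with library totals 0 and 4, and 0 and 2). Ccl3 averaged 28.9 CPM in MyD88KO, 542 CPM in TrifKO and 1329 CPM in WT cells, a difference of -5.53 ± 0.71 for MyD88KO (adjusted p = 2.7e-06) and -1.29 ± 0.56 for TrifKO (adjusted p = 0.073). Ccl5 averaged 1146, 355 and 2931 CPM in the same order of genotypes (-1.35 ± 0.48, adjusted p = 0.036, and -3.05 ± 0.54, adjusted p = 5.0e-05). Of the other chemokine receptors 3 were higher and 3 lower in MyD88KO cells, and 2 were higher and 3 lower in TrifKO cells. Ccr4 averaged 0.716 CPM in MyD88KO cells, 16.8 CPM in TrifKO cells and 18.3 CPM in WT cells (-4.67 ± 0.58, adjusted p = 1.8e-06, for MyD88KO, and -0.12 ± 0.44, adjusted p = 0.86, for TrifKO). Of the signalling genes 6 were higher and 4 lower in MyD88KO cells, and 3 were higher and 6 lower in TrifKO cells, with Rgs1 lower in both (-1.81 ± 0.23 and -1.66 ± 0.23). With library totals 8 signalling genes were higher and 2 lower in MyD88KO cells, and 9 were higher and 2 lower in TrifKO cells.

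In RAW264.7 cells with the control guide, 26.3% of all genes rose and 25.3% fell at 2 h (15.3% and 43.3% with library totals). Of 14 genes of the migratory programme tested 13 rose and 0 fell (median 2.74), and of 8 ligands 7 rose and 0 fell (median 2.46). The rise of the migratory programme after LPS was therefore not particular to dendritic cells. Of 11 other chemokine receptors 7 rose and 0 fell (median 1.93), Xcr1 among them (24.2 CPM at 2 h and 2.10 CPM at 0 h, 3.52 ± 0.20), and of 20 signalling genes 4 rose and 10 fell (median -0.14).

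The genes whose mean log2 levels followed each receptor most closely over the 9 groups of experiment 3 were found among 10228 genes by Pearson's r, as a description over groups that share libraries and scaling. Ccrl2 was followed most closely by Cd69 (r = 0.997), an early activation marker, and then by Pcbp1 (0.990) and Usp47 (0.987). Ccr7 was followed by Birc2, a regulator of NF-kB signalling (0.992), Kremen1 (0.990) and Polr3c (0.989). For Ccr2 these were Pqlc3 (0.972) and Ccdc91 (0.971). For Cxcr4 they were Nudt16l1 (0.981), Gigyf1 (0.979) and Vhl (0.976), for Ccr1 Nucb1 (0.945), Rnaseh2c (0.944) and Elk1 (0.940), and for Cx3cr1 Golga4 (0.985), Zfp991 (0.980) and Zfp992 (0.974). Over the 35 libraries r was lower, from 0.981 for Cd69 with Ccrl2 down to 0.403 for Elk1 with Ccr1. It was 0.527 for Rnaseh2c with Ccr1, 0.669 for Nudt16l1 with Cxcr4 and 0.712 for Golga4 with Cx3cr1.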

How the data were processed

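The values are counts per gene as deposited by the authors, for 65 polyA libraries (TruSeq Stranded mRNA, per the labels). The submitters' processing notes name STAR, HOMER, DESeq2 and mm10 without versions. The repeat count table was not used, and reads were not analysed. Groups follow the labels, and every column of the gene table was used.

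Each experiment was fitted apart with edgeR 4.0.16 (R 4.3.3): filterByExpr, TMM scaling, 1 term per group, two-sided quasi-likelihood F tests, Benjamini-Hochberg adjustment over all genes (14386, 14475 and 13078 in experiments 2, 3 and 5), threshold 0.05. A standard error is the log2 fold change over the root of F. The code was tested on simulated data. The 6 members and all lists were chosen with earlier results of these data known. From each further list, up to 4 genes with the largest called change in WT cells at 4 h are named, and follow-on genes (at least 5 CPM in a group, log2 of CPM plus 0.5) passed over predicted and small RNA genes. A gene that this rule names is not reported here. Adrbk1 and Adrbk2 are not under these symbols in the table. The design text speaks of biological replicates, but WT libraries of experiment 3 include up to 2 per cohort, and whether these share cells is not given. Counted as separate, their p-values may be too small. No 2 libraries of a group agreed within sampling noise (88 pairs compared).

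Cohort numbers pair the libraries of experiment 2, where residuals of same-number libraries correlated at 0.354 to 0.773 (18 pairs), and no call changed with that block. The alternative fits used DESeq2 1.42.0, dropped the low-count filter, kept only the groups being compared, or added a cohort block, a library set term, both together, summed or single-set WT libraries and 1 library left out. Library totals without TMM, the fit without TrifKO cohort 3 and the term for Xist (1 CPM or more, or less) were chosen after the data were seen.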

Additional observations from a re-analysis of the deposited data

Results flagged for a closer look

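In WT dendritic cells, 18 sets of 5 or 6 libraries (6 receptors at 3 times) were checked for a library far from the rest, and 3 had one. The cut-off gives about 1 in 20 for independent sets of normally distributed values. Linear CPM of receptors from the same libraries need not meet this, so no excess is read from the count. Ccr2 was 45 CPM in 1 WT library of cohort 3 at 0 h, against 112 CPM or more in the other 5. At 2 h Ccr2 was 54.0 CPM in 1 WT library of cohort 1, against at most 23.8 CPM in the other 4. Cxcr4 was 87.0 CPM in 1 WT library of cohort 2 at 0 h, against at least 109 CPM in the other 5.

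In 3 cases the response to LPS at 4 h differed between genotypes in a test of the difference itself (edgeR, adjusted over all genes). That of Cxcr4 was higher by 1.45 in MyD88KO than in WT cells (adjusted p = 0.010). Those of Ccr7 and Ccrl2 differed by -1.07 (adjusted p = 0.014) and -2.08 (adjusted p = 0.0038) between TrifKO and WT cells.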

How the results depend on the processing

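Over 218 values (a member in a comparison), 51 were called, and 29 of these were called under every alternative run. None of 3754 alternative values turned a call round. In 93 a call was lost and in 106 gained, and 155 values without a call in either fit changed sign. The calls kept throughout include Ccrl2 in all 9 responses against 0 h, Ccr7 and Ccr2 in WT cells at 4 h, and Cxcr4 in WT cells at both times.

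Calls of members in responses of dendritic cells numbered 21, and 32 with the replicate block of library set and cohort. That block gave 5 for WT at 2 h (main 3), 4 for MyD88KO at 4 h (main 2) and 5 for TrifKO at 4 h (main 3). Against 0 h it added Ccr2 in MyD88KO cells at 2 h (-1.10), Ccr1 in WT cells at 2 h (0.35) and 4 h (-0.33), Cx3cr1 in WT cells at 2 h (1.00), Ccr1 (-0.48) and Ccr2 (-0.99) in MyD88KO cells at 4 h, and Ccr1 (-0.52) and Cxcr4 (-0.66) in TrifKO cells at 4 h. TrifKO cohort numbers do not follow the same animals, as Xist shows, so neither block pairs the TrifKO libraries. Comparisons between genotypes gave 11 calls (10 against WT and 1 of TrifKO against MyD88KO), 6 with only the compared groups in the fit and 17 with the replicate block of the cohort number. Differences of responses gave 3, 5 with DESeq2, 5 with the Xist term, 8 with the replicate block of the cohort number and 11 with that of set and cohort. MyD88KO against WT at 4 h gave 4 and 2 within the low library set. Guide 2 against the control guide at 2 h gave 4, and 2 with only the compared groups. The cause was not tested. In experiment 3, 24 of 35 libraries correlated best with their own cohort number, and 16 of 18 in experiment 5, a hint from the data and not the design. The block in experiment 2 changed no call.

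Leaving out 1 library gave 20 to 23 calls in responses, 9 to 13 between genotypes, 3 to 4 for differences of responses, 0 in experiment 2 and 12 to 17 in RAW264.7 cells (16 with all). For single comparisons it gave 2 to 4 for MyD88KO against WT at 4 h (2 without MyD88KO replicate 2) and 2 to 4 for guide 2 against the control guide at 2 h (2 without guide 2 replicate 1 or control replicate 1 or 2). Low counts limit what can be read of Ccr7 in RAW264.7 cells (at most 2 counts per library) and of Cx3cr1 in dendritic cells (6 to 254 counts per library).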
